A study of Mus musculus with 6 samples.

Results

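Ligands and receptors of the tumour necrosis factor (TNF) superfamily were examined in immortalized mouse bone marrow-derived macrophages (iBMDMs) in which PGAM5, a phosphatase of the mitochondrial membrane, had been knocked down. The 10 genes were picked by name, with earlier results of these data known, out of 54532 gene identifiers in the deposited tables: the ligands Tnf, Ltb, Tnfsf9 and Tnfsf10, the receptors Tnfrsf1a, Tnfrsf1b, Cd40 and Fas, and 2 genes outside the family that take part in or respond to TNF signaling, Traf1 and Tnfaip2. The 6 RNA-seq libraries came from 3 samples of control iBMDMs and 3 samples of PGAM5 knockdown (KD) iBMDMs, and every sample had been given LPS, a bacterial ligand of Toll-like receptor 4, at 100 ng/ml for 4 hours. Both groups came from marrow cells of wild-type mice immortalized with retroviruses that carry v-raf and a myc oncogene. The control cells carried a lentiviral control shRNA (shControl) and the KD cells a lentiviral shRNA against Pgam5 (shPGAM5), so both groups shared the immortalization, the lentiviral infection and the LPS. No library without LPS was analysed here, so the values describe LPS-treated cells and not an induction by LPS. The number of separate infections behind each group is not given in the sources used here, so an effect of the shRNA and a difference between infected populations cannot be told apart. The labels do not say whether the numbered samples were separate cultures, so p-values measure only the spread between these samples, which may be technical.

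Most ligands of the superfamily are made as trimeric proteins of the cell surface, and some, TNF among them, are cut off by a protease and act in soluble form. Their receptors share cysteine-rich repeats outside the cell, and many signal inside it through TRAF adaptors to NF-kB and MAP kinases. Receptors with a death domain can signal through FADD and caspase-8 to cell death, and some of them use both paths. Macrophages are a main source of TNF after LPS and carry both of its receptors, as well as CD40, through which T cells activate them.

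The targeted gene, Pgam5, stood at 14.5 ± 2.27 FPKM (SD, n = 3) in control and 4.87 ± 0.770 FPKM (SD, n = 3) in KD libraries, a log2 fold change of -1.40 (SE 0.13, adjusted p = 0.000358 by limma across all tested genes), and the groups did not overlap. Antisense exons of the lincRNA Gm26718, itself at a mean of 0 FPKM, cover 58.1% of the exon length of Pgam5. Fragments there cannot be assigned where strand was not kept. FPKM is the number of fragments divided by the length of all annotated exons of the gene and by the depth of the library. Levels can be set side by side between genes, but a gene whose exons are not all used is understated. Depth recovered from the tables ran from 18163463 to 24388917 fragments per library, and 1 fragment on a gene of 1 kb was worth 0.0410 to 0.0551 FPKM. Of 8 macrophage marker genes, 7 had a mean of at least 1 FPKM and Mertk was listed at 0 in every library. Summed over these 8 genes the level was 2521 to 2592 FPKM in control and 1992 to 2038 FPKM in KD libraries, and Lyz2 (lysozyme) made up most of the sum. In 6 of the 7 the difference was called, as it was (adjusted p under 0.05) in 31.7% of all tested genes: Fcgr1 (log2 fold change 1.51), Adgre1 (0.85) and Itgam (0.68) were higher, and Csf1r (-0.64), Lyz2 (-0.40) and Cd68 (-0.20) were lower in KD cells. The part of these marker differences in the results that follow was not tested. No marker of neutrophils (8 genes), dendritic cells (6 genes), lymphocytes (8 genes) or fibroblasts (7 genes) reached a mean of 1 FPKM, and the highest single value was 0.460 FPKM. The summed level stayed at or below 0.232 FPKM in control and 0.568 FPKM in KD libraries for neutrophil genes, 0.547 and 0.613 FPKM for dendritic cell genes, 0.211 and 0.186 FPKM for lymphocyte genes, and 0 and 0.0168 FPKM for fibroblast genes. Among those listed at 0 in every library were Ly6g, Elane and Mpo of neutrophils, Flt3 and Ccr7 of dendritic cells, Cd3e and Cd8a of lymphocytes and Col1a2 of fibroblasts.

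After LPS, 5 of the 10 genes were higher in PGAM5 KD than in control iBMDMs, namely the ligands Tnf and Ltb and the receptors Cd40, Fas and Tnfrsf1a, and 1 gene, the second TNF receptor Tnfrsf1b, was lower. The sizes were moderate: the largest was a 1.66-fold higher mean FPKM of Cd40, and 0 of the 10 genes passed an absolute log2 fold change of 1, the fold threshold of the study's methods, which 1.32% of all tested genes passed. Tnfsf9, Tnfaip2 and Traf1 were tested and not called, and Tnfsf10 lay under the filter of a mean of 1 FPKM over the 6 libraries and was not tested. These 6 calls among 9 tested genes (66.7%) are to be read against a background of 31.7% of 10540 tested genes that were called in the same comparison (adjusted p under 0.05, limma on log2(FPKM + 1)). In 16.8% of all tested genes the call was higher and in 14.9% lower in KD cells. The median log2 fold change was 0.16 over the 9 tested genes and 0.01 over all 10540. After scaling to TPM (FPKM rescaled to a common sum in each library), which removes the larger FPKM sums of the KD libraries, 1084 genes were called higher and 2276 lower in place of 1771 and 1575, the median over all genes was -0.05, and 3 of the 10 genes (Ltb, Cd40 and Fas) were called higher. With 1 library left out, 3, 4 or 2 of the 10 genes were called higher without control 1, 2 or 3, and 3, 3 or 2 without KD 1, 2 or 3, in fits that called 22.2% to 27.1% of all tested genes in place of 31.7%. In bulk RNA, fewer cells that express a gene and less of its RNA in each cell cannot be told apart.

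**Figure D1:**
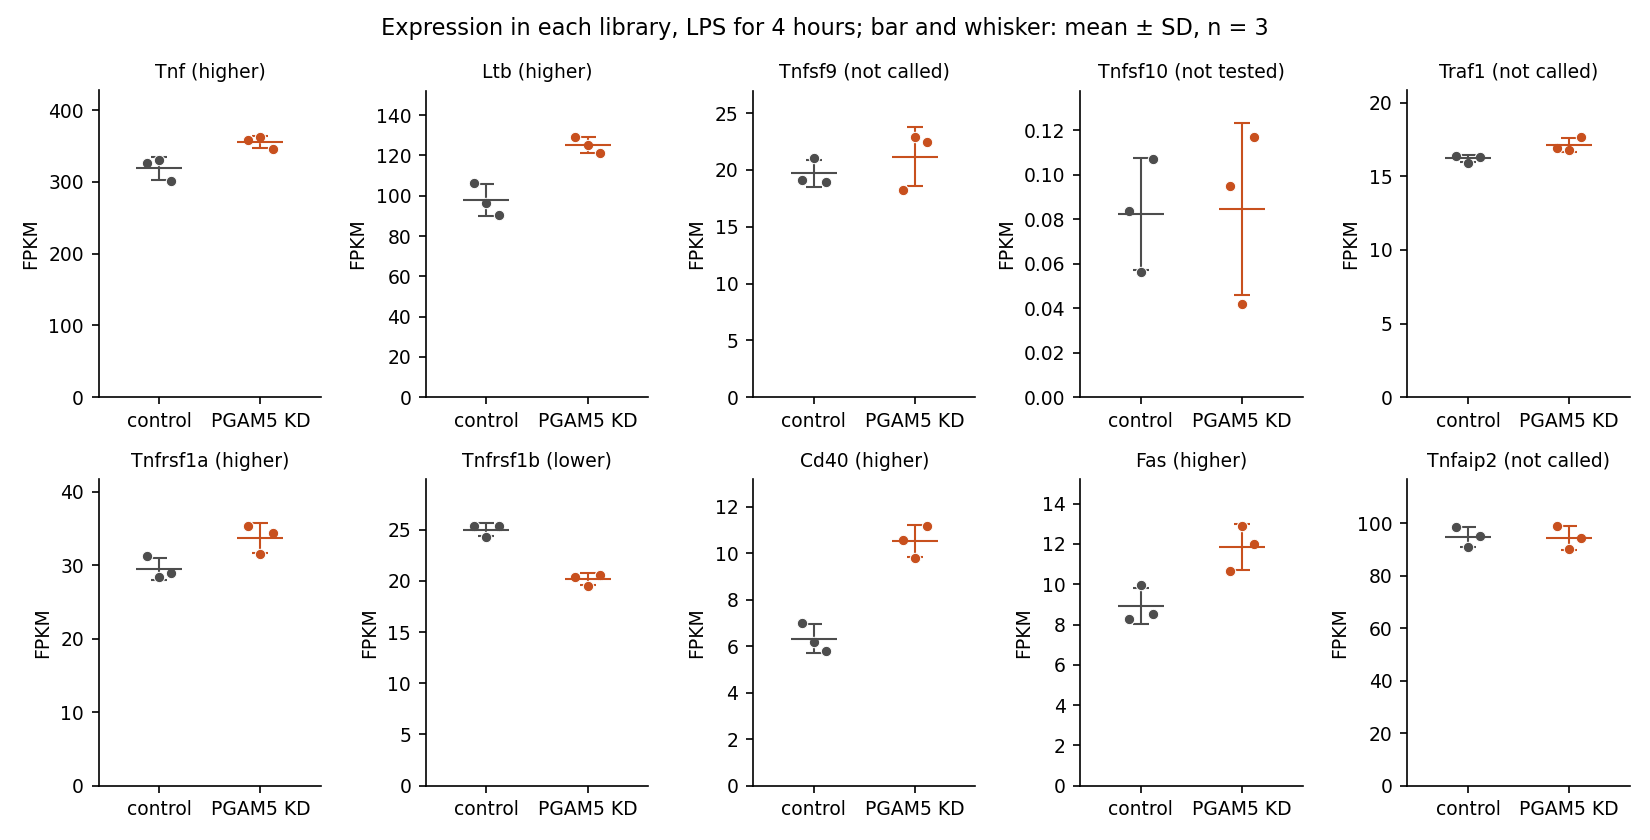
FPKM of the 10 genes in each library, 1 panel per gene with its own axis that starts at 0. Each point is 1 library of control or PGAM5 KD iBMDMs after LPS and the bar and whisker are the group mean and SD (n = 3). The KD points of Cd40 lie between 9.81 and 11.2 FPKM, above all control points, and those of Tnfrsf1b lie below all control points.

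Tnf itself (ENSMUSG00000024401) lies on the minus strand at chr17:35199381-35202007 (GRCm38) and had the highest level of the 10 genes in both groups. Control libraries held 326, 331 and 301 FPKM of Tnf and KD libraries 358, 362 and 346 FPKM. All 3 KD libraries were thus above all 3 control libraries, by a margin that was small beside the level. The means were 319 ± 16.0 and 355 ± 8.23 FPKM (SD, n = 3 each), a rise of 11.4% and a log2 fold change of 0.16 (SE 0.04, 95% confidence interval 0.06 to 0.26, adjusted p = 0.0298, limma). An exact two-sided permutation test gave p = 0.1, the smallest that 3 against 3 allows. The Tnf call depended on the scaling: the log2 fold change was 0.08 after scaling to TPM (adjusted p = 0.212, limma) and 0.0036 after quantile normalization (adjusted p = 0.956, limma). Leaving out control 1, control 3, KD 1, KD 2 or KD 3 moved the limma adjusted p to 0.0527, 0.0621, 0.0651, 0.0923 or 0.0502. Over the 6 fits with a library left out its log2 fold change stayed at 0.11 to 0.18.

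Ltb (ENSMUSG00000024399) encodes lymphotoxin beta, the membrane anchor of the lymphotoxin heterotrimer, and is a neighbour of Tnf, on the plus strand at chr17:35194439-35196320 with 3060 bases between the genes. Its level was 106, 96.4 and 90.5 FPKM in control and 129, 125 and 121 FPKM in KD libraries. The groups did not overlap, and the lowest KD library stood clear of the highest control library. With means of 97.8 ± 8.06 and 125 ± 3.84 FPKM (SD, n = 3 each), Ltb was 28% higher in KD cells, at a log2 fold change of 0.36 (SE 0.06, 95% confidence interval 0.21 to 0.50, adjusted p = 0.00519, limma). The microRNA gene Mir6973a lies within Ltb and shares 0 bases with its exons. Over 15 alternative settings, those that leave out a library included, Ltb stayed called at 0.28 to 0.42. Within a library the level of Tnf was 3.06, 3.43 and 3.32 times that of Ltb in control and 2.77, 2.89 and 2.85 times in KD libraries. This ratio, which does not depend on depth scaling, was lower in each KD library than in each control library. Lta, the third ligand gene of this locus and the partner of Ltb in the heterotrimer, lies 1157 bases from Tnf and was low, at 2.75, 1.29 and 1.26 FPKM in control and 1.28, 1.55 and 1.99 FPKM in KD libraries. The libraries of Lta overlapped between groups, at a log2 fold change of -0.05 (SE 0.22, adjusted p = 0.878, limma), positive without control 1 (0.19) or KD 1 (0.04).

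Tnfsf9 (ENSMUSG00000035678, chr17:57105325-57107757, plus strand) encodes 4-1BB ligand, a costimulator of T cells. Its values were 19.1, 21.1 and 18.9 FPKM in control and 18.2, 22.9 and 22.4 FPKM in KD libraries. KD 1 was the lowest of all 6 libraries, while the other KD libraries were the highest. The log2 fold change was 0.09 (SE 0.09, 95% confidence interval -0.12 to 0.31, adjusted p = 0.464, limma), and it moved with single libraries: 0.14 without control 2, 0.19 without KD 1, 0.04 without KD 2 and 0.05 without KD 3. Antisense exons of the lincRNA Gm11110, itself at a mean of 2.62 FPKM, cover 14.9% of the exon length of Tnfsf9, and fragments there cannot be assigned where strand was not kept. Its receptor Tnfrsf9 (4-1BB) was found at 2.20, 2.80 and 1.99 FPKM in control and at 1.54, 1.23 and 0.934 FPKM in KD libraries. All KD values were thus the lower ones, and the log2 fold change was -0.58 (SE 0.14, adjusted p = 0.0221, limma). Without control 1, control 2, KD 2 or KD 3 the adjusted p for Tnfrsf9 from limma was 0.0520, 0.0680, 0.0574 or 0.0636.

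Tnfsf10 (ENSMUSG00000039304, chr3:27317028-27342427, plus strand), which encodes the death ligand TRAIL, was close to the floor of detection. The 6 libraries held 4 to 15 fragments each, at 0.0836, 0.0565 and 0.107 FPKM in control and 0.0950, 0.0418 and 0.117 FPKM in KD libraries. A difference was not detectable at this depth: without the filter on low values its log2 fold change was 0.0026 (adjusted p = 0.972, limma). The TRAIL receptor Tnfrsf10b had values of 1.06, 1.79 and 0.799 FPKM in control and 1.82, 1.47 and 1.71 FPKM in KD libraries. These groups overlapped as well (log2 fold change 0.29, SE 0.17, adjusted p = 0.249, limma), and the value was 0.47 without control 2 and 0.15 without control 3. Tnfrsf22 and Tnfrsf23, mouse decoy receptors for TRAIL, had log2 fold changes of -0.29 and 0.16 (adjusted p = 0.0727 and 0.245, limma), with -0.18 for Tnfrsf22 without control 3 and 0.07 for Tnfrsf23 without control 2.

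The receptors of TNF differed in opposite directions. Tnfrsf1a (TNFR1, with a death domain and present on most cells, ENSMUSG00000030341) lies at chr6:125349362-125362484 on the plus strand. It was measured at 31.3, 28.4 and 28.9 FPKM in control and at 35.4, 31.5 and 34.3 FPKM in KD libraries. The lowest KD library lay just above the highest control library. Means of 29.5 ± 1.5 and 33.7 ± 2.00 FPKM (SD, n = 3 each) gave a rise of 14.2% and a log2 fold change of 0.19 (SE 0.06, 95% confidence interval 0.05 to 0.32, adjusted p = 0.0458, limma). That call was lost after scaling to TPM (0.11, adjusted p = 0.215, limma), and the limma adjusted p was 0.130, 0.123, 0.114 or 0.123 without control 2, control 3, KD 1 or KD 3. Tnfrsf1b (TNFR2, which lacks a death domain and is bound best by membrane TNF, ENSMUSG00000028599) lies at chr4:145213463-145246870 on the minus strand. Its control libraries stood at 25.4, 24.3 and 25.4 FPKM and its KD libraries at 20.4, 19.6 and 20.6 FPKM. The replicates of each group were close together and far from those of the other group. From 25.0 ± 0.636 to 20.2 ± 0.557 FPKM (SD, n = 3 each), the mean level was lower by a log2 fold change of -0.30 (SE 0.04, 95% confidence interval -0.39 to -0.20, adjusted p = 0.00214, limma), and the call held in all 15 alternatives, at -0.37 to -0.27. In control libraries the level of Tnfrsf1a was 1.23, 1.17 and 1.14 times that of Tnfrsf1b, and in KD libraries 1.74, 1.61 and 1.67 times. The ratio of these receptors was therefore higher in each KD library than in any control library, and depth scaling leaves such a ratio unchanged.

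Cd40 (ENSMUSG00000017652, chr2:165055627-165072948, plus strand), the receptor through which T helper cells activate macrophages and B cells, had the largest difference of the 10 genes. Control libraries were at 7.01, 6.18 and 5.77 FPKM and KD libraries at 10.6, 9.81 and 11.2 FPKM. The gap between the groups was wider than the spread within either. The mean went from 6.32 ± 0.632 to 10.5 ± 0.687 FPKM (SD, n = 3 each), 66.3% higher, at a log2 fold change of 0.65 (SE 0.08, 95% confidence interval 0.47 to 0.84, adjusted p = 0.00123, limma). Cd40 stayed called in all 15 alternatives, at 0.58 to 0.75. Its ligand gene Cd40lg, a product of activated T cells, was listed at 0 in every library.

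Fas (ENSMUSG00000024778, chr19:34290666-34327772, plus strand) encodes the death receptor CD95. Levels of 8.28, 9.96 and 8.5 FPKM in control stood against 10.6, 12.9 and 12 FPKM in KD libraries. The groups did not overlap, although control 2 and KD 1 were near each other. The mean rose by 32.8%, from 8.92 ± 0.912 to 11.8 ± 1.14 FPKM (SD, n = 3 each), with a log2 fold change of 0.37 (SE 0.09, 95% confidence interval 0.16 to 0.58, adjusted p = 0.0199, limma). The small RNA gene Gm27818, in an intron of Fas, was listed at 0. Leaving out control 1, control 3, KD 2 or KD 3 gave limma adjusted p values of 0.0615, 0.0651, 0.0611 or 0.0626. Fasl, its ligand gene, was listed at 0 in the 3 control libraries and in KD 3, and at 0.0470 and 0.0284 FPKM in KD 1 and KD 2, values that rest on 2 fragments at most.

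Traf1 and Tnfaip2 were expressed and were not called. Traf1 (ENSMUSG00000026875, chr2:34941750-34961772, minus strand), an adaptor that is itself an NF-kB target and binds TNFR2, had values of 16.4, 15.9 and 16.3 FPKM in control and 16.9, 16.8 and 17.7 FPKM in KD libraries. The groups did not overlap, yet the log2 fold change of 0.07 (SE 0.04, 95% confidence interval -0.02 to 0.17, adjusted p = 0.214, limma) did not pass the test, and it was -0.00088 after scaling to TPM. Counted over the tested genes, the groups did not overlap in 7 of 9 (77.8%), against 47.1% of all tested genes. Tnfaip2 (ENSMUSG00000021281, chr12:111442469-111455018, plus strand), a TNF-induced gene, was at 98.6, 91.0 and 95.1 FPKM in control and 99.0, 90.0 and 94.3 FPKM in KD libraries. Its groups lay on top of each other, and its log2 fold change was -0.0077 (SE 0.05, 95% confidence interval -0.12 to 0.10, adjusted p = 0.917, limma), an interval that does not reach the values of Ltb, Cd40, Fas or Tnfrsf1b. The antisense gene Gm40578, at a mean of 0.174 FPKM, has exons over 6.30% of the exon length of Tnfaip2. Without control 1 or KD 2 the log2 fold change of Tnfaip2 was 0.02 or 0.03.

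Ranked by mean FPKM, the control order was Tnf, Ltb, Tnfaip2, Tnfrsf1a, Tnfrsf1b, Tnfsf9, Traf1, Fas, Cd40 and Tnfsf10, and only the ranges of Ltb and Tnfaip2 overlapped between neighbours. In KD libraries Ltb stood clear above Tnfaip2, and Tnfrsf1b fell to the level of Tnfsf9, so that these 2 genes overlapped. The ranges of Fas and Cd40, separate in control cells, overlapped in KD cells.

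**Figure D2:**
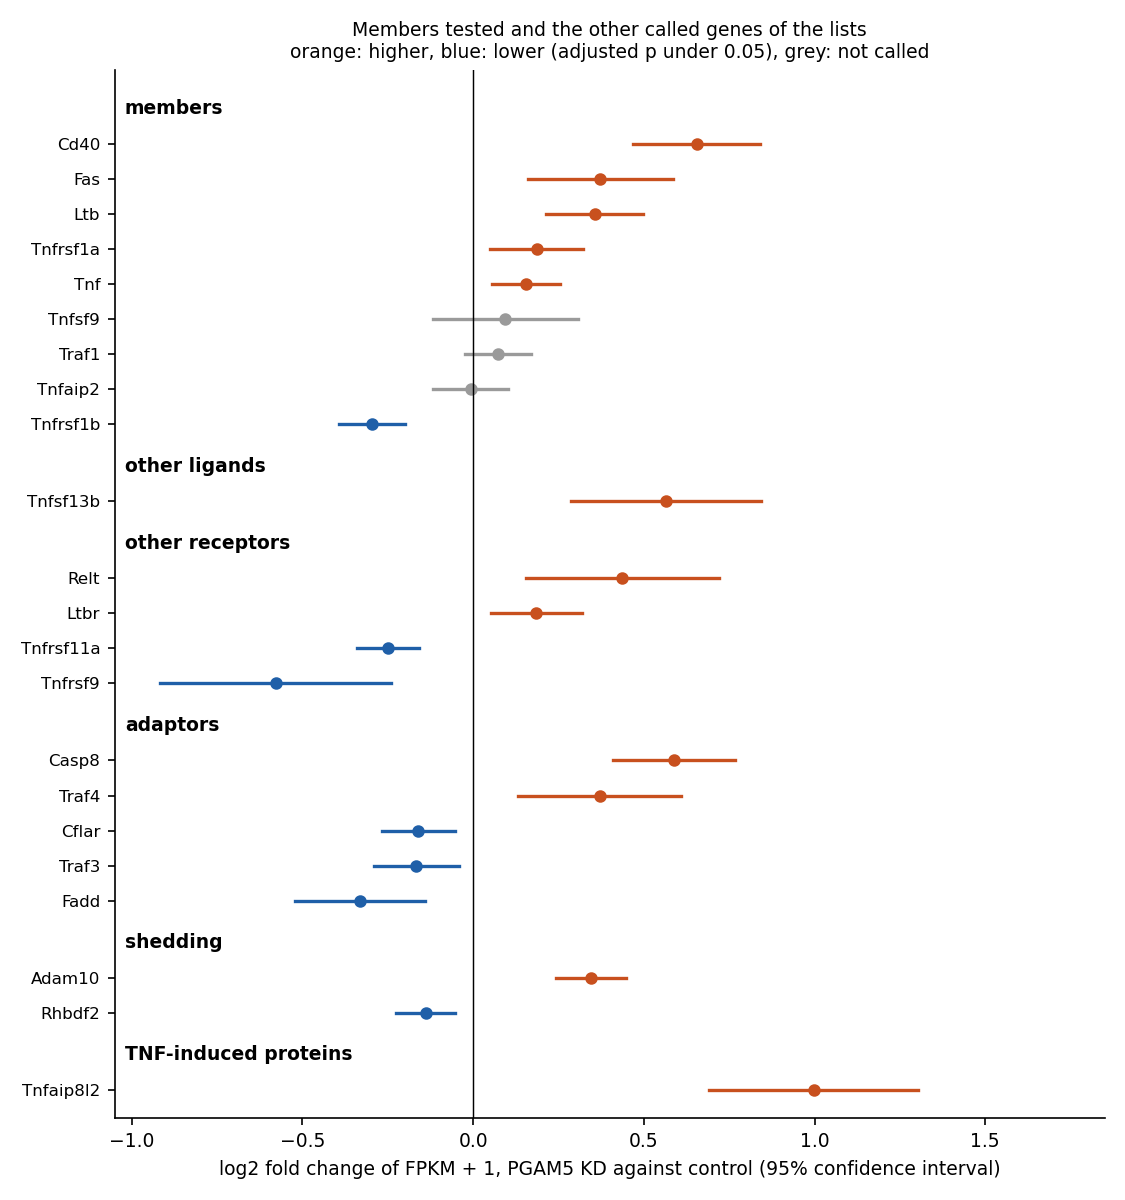
Log2 fold change of FPKM + 1, PGAM5 KD against control, with its 95% confidence interval, for the 9 tested genes of the 10 and for the other called genes of the lists, leaving out Tnfrsf13b, which passed the filter through the KD libraries alone. Colors mark genes called higher, called lower or not called at an adjusted p under 0.05. Tnfaip8l2, at 1.00, lies farthest from 0, and Cd40, at 0.65, is the farthest of the 10 genes.

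Across the whole superfamily, 46 genes were listed (18 ligands and 28 receptors, 8 of them among the 10 genes above), and 19 of them, 5 ligands and 14 receptors, had a mean of at least 1 FPKM. Most ligand genes were thus under 1 FPKM in these cells, and 4 of them (Tnfsf4, Cd40lg, Cd70 and Tnfsf11) and 3 receptor genes (Tnfrsf19, Tnfrsf25 and Edar) were listed at 0 in every library. In KD cells 9 of the 19 were called higher and 3 lower (63.2% called, against 31.7% of all tested genes), and their median log2 fold change was 0.16. Of the 5 tested ligands 3 were higher and 0 lower (Tnf, Ltb and Tnfsf13b, median 0.16). Of the 14 tested receptors 6 were higher and 3 lower (median 0.17). Over all tested genes 16.8% were called higher and 14.9% lower. One of the receptors called higher, Tnfrsf13b, passed the filter through the KD libraries alone, so it could only differ, and these counts and medians are a description. After scaling to TPM, 3 receptors were called higher and 4 lower, and 5, 3 or 2 were higher without control 1, 2 or 3 and 3, 3 or 2 without KD 1, 2 or 3 (22.2% to 27.1% of all genes called).

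Tnfrsf13b, which was tested only because of its level in the KD libraries, is the gene of TACI, a receptor best known from B cells that binds BAFF and APRIL. Control libraries held 0.582, 0.647 and 0.596 FPKM and KD libraries 3.90, 3.77 and 3.59 FPKM. In fragments this was 30 to 37 against 194 to 248, and the groups were far apart. The ratio of the means was 6.16 and the log2 fold change 1.56, given here without a test. Tnfsf13b, the gene of its ligand BAFF, was at 1.39, 1.14 and 1.39 FPKM in control and 2.10, 2.88 and 2.29 FPKM in KD libraries. The groups did not overlap (log2 fold change 0.56, SE 0.12, adjusted p = 0.0118, limma).

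Ltbr, the receptor of lymphotoxin beta, was measured at 22.4, 21.2 and 19.7 FPKM in control and 24.5, 24.7 and 23.0 FPKM in KD libraries. Its log2 fold change was 0.19 (SE 0.06, adjusted p = 0.0443, limma), close to that of Tnfrsf1a. The call was lost after scaling to TPM (0.11, adjusted p = 0.190, limma), and without control 2, control 3, KD 1, KD 2 or KD 3 the limma adjusted p was 0.0984, 0.116, 0.103, 0.124 or 0.0562. Tnfrsf11a (RANK, the receptor that drives osteoclast formation from macrophage precursors) fell from 22 ± 0.369 to 18.3 ± 0.435 FPKM (SD, n = 3 each), a log2 fold change of -0.25 (SE 0.04, adjusted p = 0.0036, limma). Relt rose from 2.85 ± 0.598 to 4.17 ± 0.281 FPKM (SD, n = 3 each), at 0.44 on the log2 scale (SE 0.12, adjusted p = 0.0314, limma). The call of Relt was lost without control 2, control 3, KD 1, KD 2 or KD 3 (adjusted p = 0.0754, 0.0861, 0.0807, 0.0542 or 0.0914, limma) and after scaling to TPM (0.38, adjusted p = 0.052, limma).

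**Figure D3:**
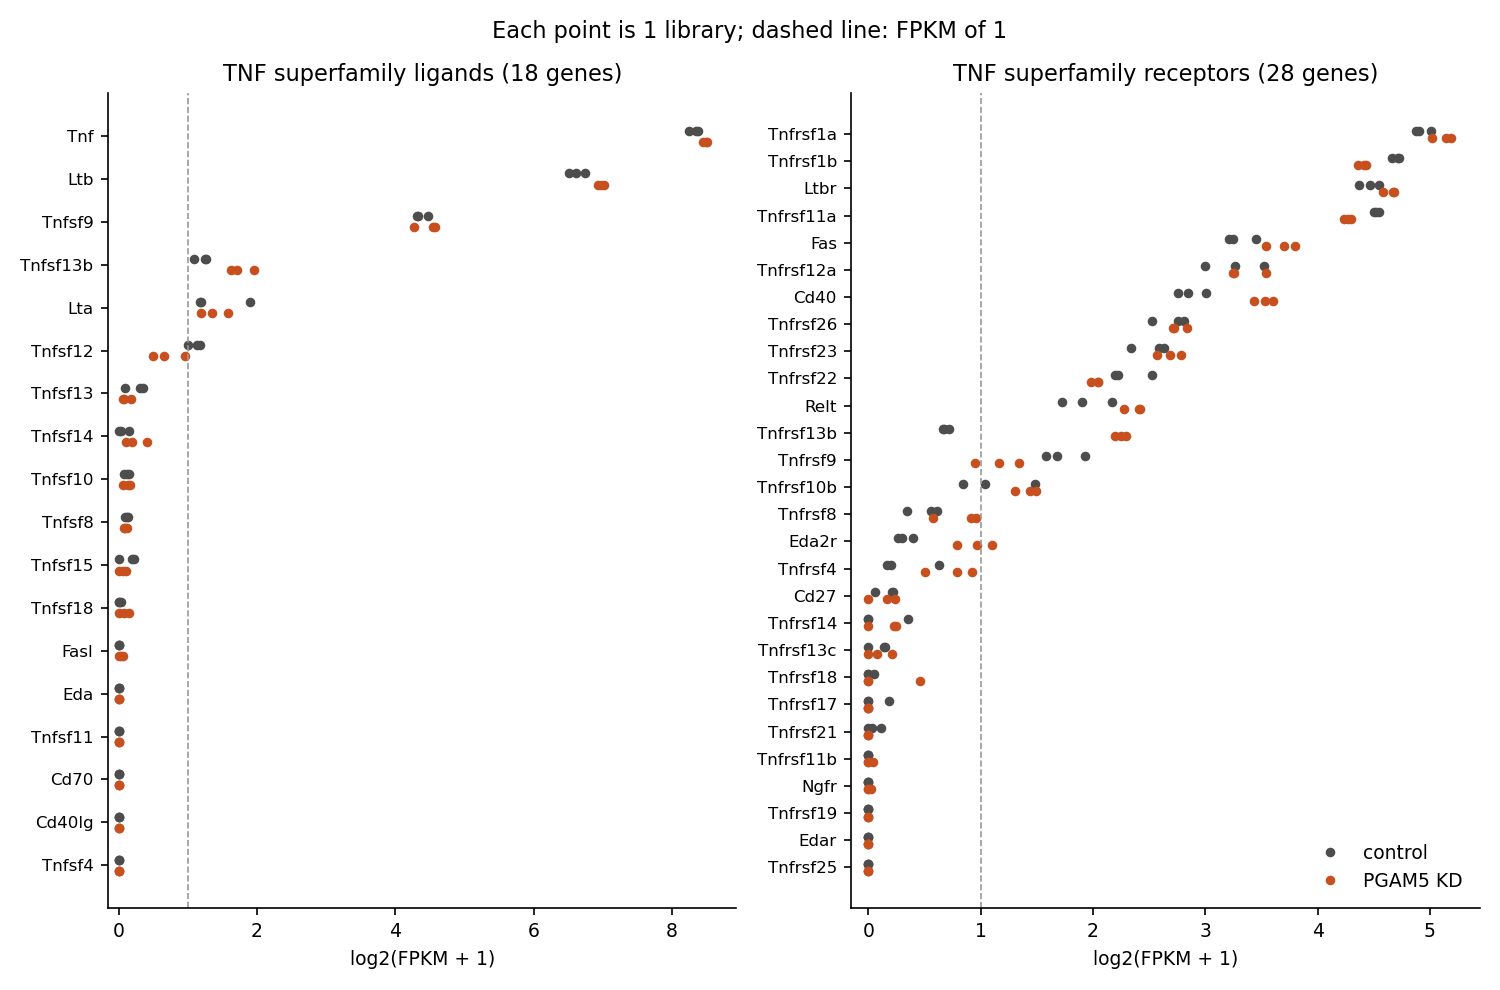
Levels of the 18 ligands and 28 receptors of the superfamily as log2(FPKM + 1), 1 point per library, ordered by mean FPKM. The dashed line marks 1 FPKM, above which 5 ligands and 14 receptors had their mean.

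Downstream of the receptors, 22 genes of adaptors, kinases and other signaling proteins, caspase-8 and its inhibitor among them, were listed as the adaptor list. All were tested, 2 were called higher and 3 lower in KD cells, and their median log2 fold change was -0.07. Over all tested genes 31.7% were called. After scaling to TPM 1 of the 22 was called higher and 6 lower. Called lower were 0, 1 or 0 without control 1, 2 or 3 and 2, 0 or 1 without KD 1, 2 or 3, and called higher 1 without any 1 of the control libraries or KD 1, where 22.2% to 27.1% of all genes were called over the 6 fits. Casp8, the initiator caspase of death receptors, rose from 11 ± 0.944 to 17.0 ± 1.25 FPKM (SD, n = 3 each), a log2 fold change of 0.59 (SE 0.08, adjusted p = 0.00163, limma) that stayed called in every alternative run. Fadd and Cflar, 2 genes of the same death-receptor complex, were lower. Fadd, the adaptor that recruits caspase-8, was at 3.25 ± 0.209 FPKM in control and 2.38 ± 0.164 FPKM in KD libraries (log2 fold change -0.33, SE 0.08, adjusted p = 0.021, limma). Cflar, which encodes the caspase-8 inhibitor c-FLIP, was at 15.7 ± 0.335 and 13.9 ± 0.524 FPKM (log2 fold change -0.16, SE 0.05, adjusted p = 0.0337, limma). Without 1 of the libraries control 1, control 3, KD 1 or KD 2 the Fadd call was lost (adjusted p 0.0550 to 0.0684, limma), and without control 1, control 2, control 3, KD 2 or KD 3 so was that of Cflar (adjusted p 0.0672 to 0.0980, limma).

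Traf3, which holds back the noncanonical NF-kB pathway, was at 18.2 ± 0.711 FPKM in control and 16.1 ± 0.834 FPKM in KD libraries (log2 fold change -0.17, SE 0.05, adjusted p = 0.0489, limma), and Traf4 at 3.05 ± 0.247 and 4.25 ± 0.608 FPKM (0.37, SE 0.10, adjusted p = 0.0314, limma). Both calls were fragile: the limma adjusted p was 0.0719 to 0.137 for Traf3 without control 1, control 2, control 3, KD 2 or KD 3, and 0.0557 to 0.0898 for Traf4 without control 1, control 2, control 3, KD 1 or KD 3. Of all alternatives run, Traf3 lost its call in 8 of 15 and Traf4 in 8 of 14. Their log2 fold changes ran from -0.24 to -0.14 and from 0.28 to 0.48 over these alternatives. Traf4 also lost its call after scaling to TPM (0.31, adjusted p = 0.0615, limma). Several central genes did not pass the test, among them Traf2 (log2 fold change 0.01, adjusted p = 0.895), Traf6 (-0.20, adjusted p = 0.0615), Tradd (-0.14, adjusted p = 0.357), Ripk1 (-0.04, adjusted p = 0.626) and Map3k14 (0.35, adjusted p = 0.0502). Traf2 had a negative value without control 1 (-0.02), without KD 1 (-0.02) and after scaling to TPM (-0.06). With 1 library left out Tradd ran from -0.25 to -0.06 and Ripk1 from -0.07 to -0.02.

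Of 10 listed regulators of signaling, 0 were called (limma, and 0 with voom on recovered fragments), against 31.7% of all tested genes. They include the ubiquitin-editing enzyme A20 and the deubiquitinase CYLD, and not all of them restrain signaling. An unadjusted p under 0.05 was found for 1 of the 10 and for 4510 of all 10540 tested genes. Tnfaip3 (A20) was at 16.3 FPKM in control and 15.3 FPKM in KD libraries, a log2 fold change of -0.09 (adjusted p = 0.196, limma), and Cyld, at 0.08 on the log2 scale, was not called either (adjusted p = 0.409, limma, 0.04 to 0.11 with 1 library left out). Of 5 genes of ligand and receptor shedding, 1 was higher and 1 lower, against 31.7% called over all tested genes. Adam17, the protease that releases TNF from the membrane, was at 42.6 and 41.0 FPKM and was not called (log2 fold change -0.06, adjusted p = 0.408, limma, -0.09 to -0.03 with 1 library left out). Adam10, a related sheddase, rose from 43.0 ± 2.17 to 54.8 ± 0.832 FPKM (SD, n = 3 each), with a log2 fold change of 0.34 (SE 0.04, adjusted p = 0.00148, limma). Rhbdf2 (iRhom2, which brings ADAM17 to the cell surface) was at 17.1 ± 0.0862 and 15.5 ± 0.122 FPKM (log2 fold change -0.14, SE 0.04, adjusted p = 0.0277, limma), and the call was lost without any 1 of the 6 libraries (adjusted p 0.0551 to 0.0834, limma), while its log2 fold change stayed at -0.14 to -0.13. Of 8 genes named as TNF-induced proteins, Tnfaip2 and Tnfaip3 included, 5 were tested and 1 was called, against the same 31.7% over all tested genes. This gene was Tnfaip8l2 (TIPE2, known as a brake on Toll-like receptor signaling), at 6.06 ± 1.40 FPKM in control and 12.9 ± 0.575 FPKM in KD libraries (SD, n = 3 each), a log2 fold change of 1.00 (SE 0.13, adjusted p = 0.00165, limma).

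The stretches just before the start sites are shown for the called genes of the TNF locus, both TNF receptors and Fas, because these genes differed in opposite directions. RefSeq promoter windows (GRCm38.p6, 250 bases before to 50 bases after the start) were found for 8 of the 10 genes, with none for Tnfsf9 and Cd40, and annotated exon bases are left out. Capitals mark matches on either strand to the kappaB motif GGGRNNYYCC, where R is A or G and Y is C or T. They also mark the GAS motif TTCNNNGAA of STAT factors, and the core GAAANNGAAA of the ISRE, the element of interferon-regulated genes. The stretches are chr17:35202008-35202257 (minus strand) for Tnf, chr17:35194257-35194438 (plus strand) for Ltb, chr6:125349509-125349722 (plus strand) for Tnfrsf1a, chr4:145246871-145247120 (minus strand) for Tnfrsf1b and chr19:34290409-34290658 (plus strand) for Fas.
Tnf: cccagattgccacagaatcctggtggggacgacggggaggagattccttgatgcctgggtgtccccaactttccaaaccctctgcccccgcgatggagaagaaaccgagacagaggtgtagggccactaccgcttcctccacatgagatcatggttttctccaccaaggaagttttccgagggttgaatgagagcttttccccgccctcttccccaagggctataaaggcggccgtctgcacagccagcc
Ltb: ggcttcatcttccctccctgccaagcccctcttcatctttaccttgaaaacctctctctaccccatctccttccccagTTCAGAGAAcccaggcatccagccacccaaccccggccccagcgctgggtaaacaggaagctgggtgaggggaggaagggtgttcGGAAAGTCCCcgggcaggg
Tnfrsf1a: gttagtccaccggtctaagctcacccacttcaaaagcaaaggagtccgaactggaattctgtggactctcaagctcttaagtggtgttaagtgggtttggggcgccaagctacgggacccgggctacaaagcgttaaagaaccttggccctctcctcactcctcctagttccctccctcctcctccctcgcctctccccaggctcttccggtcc
Tnfrsf1b: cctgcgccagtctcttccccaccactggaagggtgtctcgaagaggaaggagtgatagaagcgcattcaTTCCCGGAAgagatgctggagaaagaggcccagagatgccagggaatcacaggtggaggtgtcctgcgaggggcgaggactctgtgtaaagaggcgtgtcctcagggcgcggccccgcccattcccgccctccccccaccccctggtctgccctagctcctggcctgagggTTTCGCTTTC
Fas: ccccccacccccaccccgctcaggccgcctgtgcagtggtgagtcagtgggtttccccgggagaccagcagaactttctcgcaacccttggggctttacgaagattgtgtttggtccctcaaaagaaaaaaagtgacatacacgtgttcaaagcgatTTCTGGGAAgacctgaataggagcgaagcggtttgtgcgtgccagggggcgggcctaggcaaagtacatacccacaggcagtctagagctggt

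In these windows Ltb, higher in KD cells, held a GAS match at -172 to -164 and a kappaB match at -87 to -78, counted from the start site. Tnfrsf1b, lower in KD cells, held a GAS match at -181 to -173 and an ISRE core match on the opposite strand at -10 to -1. Fas held a GAS match at -93 to -85, and Tnfrsf1a held one at -244 to -236, outside the stretch printed. The window of Tnf held no match to these letters, and bases farther upstream were not searched. Tnfaip2, which was not called, held a kappaB match at -24 to -15. This match lies within the annotated gene, which begins right after position -193 of the window. Over 32851 promoters of the same length the kappaB motif was found in 8.46%, GAS in 8.30% and the ISRE core in 3.44%. The matches describe the letters and were not tied to the differences in level.

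**Figure D4:**
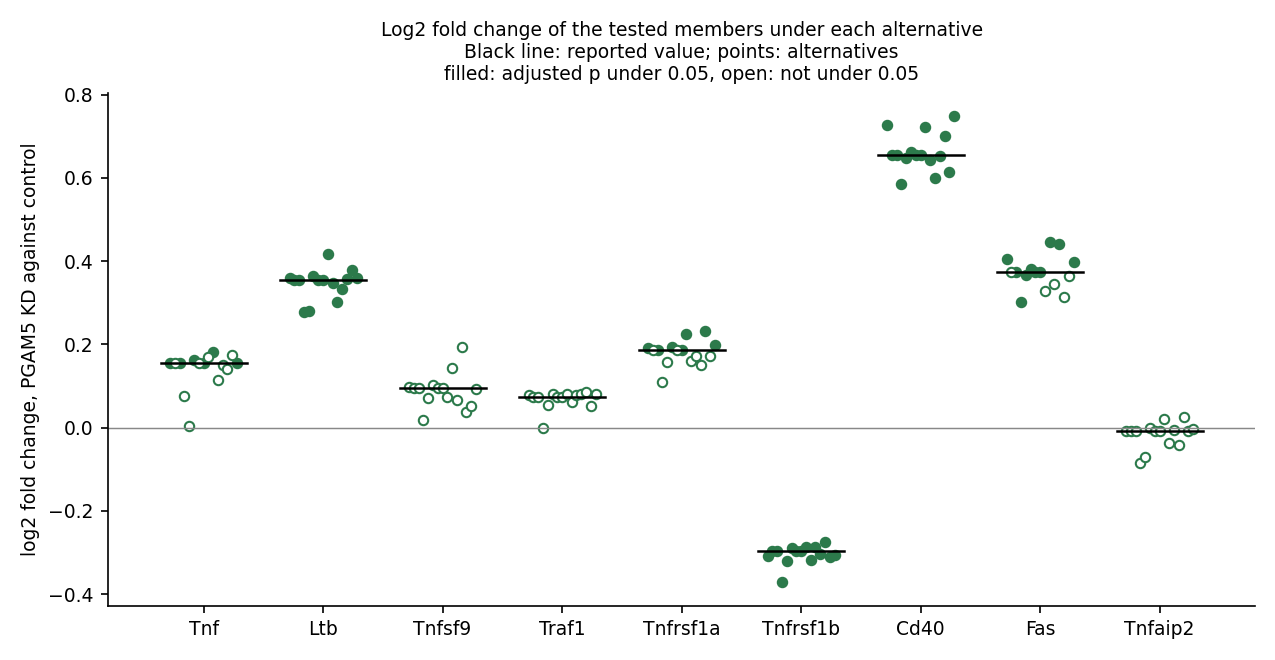
Log2 fold change of the 9 tested genes under 15 alternative settings (points) beside the reported value (black line), filled where the adjusted p was under 0.05. All points of Ltb, Tnfrsf1b and Cd40 are filled, while Tnf, Tnfrsf1a and Fas have open points.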

How the data were processed

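The authors deposited FPKM, 1 table per library of poly-A RNA. The submitters' processing notes name HISAT2 2.0.5, featureCounts 1.5.0-p3 and mm10. The annotation release and whether strand was kept are not given in the sources used here, so reads of a gene and of an overlapping antisense gene cannot be told apart. Gene names and positions came from GENCODE M21 (GRCm38), which held 54495 of 54532 identifiers. FPKM times exon length fell on whole fragments (within 0.01) for 96.8% to 97.1% of values under 1000 fragments. Replicate libraries differed by more than sampling noise (chi-square per degree of freedom 4.82 to 8.16).

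Groups came from the sample labels. The log2 values of FPKM + 1 were fitted in limma 3.58.1 (R 4.3.3) by lmFit and trended eBayes, with two-sided p-values adjusted by Benjamini-Hochberg over the 10540 genes whose mean FPKM reached 1, and the script was tested on simulated data. A pseudocount of 1 understates changes of low genes. The members and gene lists were chosen with earlier results of these data known. Named genes were the 10 members, Pgam5, up to 5 called genes per list and direction, detected partners of members, overlapping genes and the 3 closest in pattern to Tnf and Cd40. Traf2, Traf6, Tradd, Ripk1, Map3k14, Tnfaip3, Cyld, Adam17, Eda2r, Tnfsf12, the marker genes and those listed at 0 were named after their values were seen. No member had a look-alike transcript (blastn 2.17.0, at least 85% identity over 500 bases). Alternatives were pseudocount 0.1, other filters and scalings, no trend, a replicate block, voom on recovered fragments and leaving out each library. Python 3.11.15 and matplotlib 3.10.9 drew the figures.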

Additional observations from a re-analysis of the deposited data

How the results depend on the processing

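Depth limits Tnfsf10, Fasl and other genes of few fragments. Cd40, Ltb, Tnfrsf1b and Pgam5 kept their calls in all 15 alternatives. Of all genes tested, 31.7% were called as reported, 12.4% without a filter on low values, 39.1% at a mean FPKM of at least 5, 31.9% after scaling to TPM, 29.95% after quantile normalization, 29.6% without the mean-variance trend, 25.2% with the replicate block, 36.8% with voom and 22.2% to 27.1% with 1 library left out, and the counts that follow are to be read beside these shares. Members called higher numbered 5 as reported, 2 without a filter on low values, 3 after scaling to TPM, 3 after quantile normalization, 3 without the mean-variance trend and 2 to 4 with 1 library left out. Tnf kept its direction but not its call without the filter (0.16), after scaling to TPM (0.077), after quantile normalization (0.0036), without the trend (0.16) and in 5 of 6 fits with 1 library left out (0.11 to 0.18 over the 6). Tnfrsf1a did so without the filter (0.19), after TPM (0.11), quantile normalization (0.16), without the trend (0.19) and in 4 of 6 fits with a library left out (0.15 to 0.23 over the 6), and Fas without the filter (0.37) and in 4 of 6 fits with a library left out (0.31 to 0.45 over the 6). Traf1 was -0.00088 after TPM, and Tnfaip2 ran from -0.042 to 0.026 with a library left out, positive without control 1 (0.020) and without KD 2 (0.026). Lta ran from -0.18 to 0.19, and was 0.19 without control 1 and 0.04 without KD 1. Traf2 was -0.055 after TPM, -0.022 without control 1 and -0.017 without KD 1, in a range of -0.022 to 0.055 with a library left out. The cause of these changes was not tested.

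Over all genes, 1084 were called higher after TPM, and 261 (pseudocount 0.1), 76 (mean FPKM of at least 5) and 283 (voom) passed the fold threshold in place of 139. Receptors called higher were 3 without the filter and 3 after TPM in place of 6, and 2 to 5 with a library left out. Genes of the adaptor list called higher were 1 without the filter, 1 at a mean FPKM of at least 5, 1 after TPM, 1 with the replicate block and 1 to 2 with a library left out. Those of the adaptor list called lower were 1 without the filter, 6 after TPM, 5 with voom and 0 to 2 with a library left out. Shedding genes called higher were 1 to 2 with a library left out, and those called lower 0 in each such fit and 0 with the replicate block. TNF-induced proteins called higher were 2 without the trend and 2 with voom. Traf6 passed the test after TPM, without the trend and with voom, Map3k14 with pseudocount 0.1, library-median centring, voom or without KD 3, and Tnfrsf22 after TPM and with voom.

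Same-numbered libraries did not deviate together (r of -0.02, 0.02 and -0.05), and no library correlated best with its own number, so the numbers are not taken as pairs. With the replicate block 1440 genes were called higher and 1212 lower, the members stayed at 5 higher and 1 lower, and the calls of Traf4, Cflar and Rhbdf2 were lost (adjusted p 0.0779, 0.0718 and 0.0755, limma).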

Other observations

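Among the receptors under the filter of 1 FPKM, Eda2r (the receptor of ectodysplasin A2) was at 0.318, 0.202 and 0.235 FPKM in control and 0.958, 1.15 and 0.731 FPKM in PGAM5 KD libraries. The groups did not overlap. With no filter on low values its log2 fold change was 0.63 (SE 0.10, adjusted p = 0.0144, limma). Tnfsf12 (TWEAK) was at 1.2, 1.01 and 1.25 FPKM in control and 0.571, 0.945 and 0.406 FPKM in KD libraries, also without overlap between groups, and did not pass the test with no filter (log2 fold change -0.40, adjusted p = 0.140, limma). The exons of Tnfsfm13, a protein-coding gene on the same strand, cover 48.3% of the exon length of Tnfsf12, so fragments there cannot be assigned.

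The genes whose log2(FPKM + 1) followed Tnf most closely over the 6 libraries were Car13 (Pearson r = 0.997), Eif4ebp1 (r = 0.993) and Gm12606 (r = 0.988). For Cd40 they were Apoo (r = 0.999), Ppp2ca (r = 0.998) and Limd2 (r = 0.998). These r are a description over libraries that fall into 2 groups, and 387 of 10531 genes had an r above 0.9 with Tnf and 1078 with Cd40.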
